A study of Rattus norvegicus with 9 samples.

Results

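The oligodendrocyte lineage genes described here are 9 genes taken by name from the table of all genes, namely the precursor and lineage genes Olig1, Olig2, Sox10, Pdgfra and Cspg4 and the myelin genes Cnp, Mbp, Mog and Mag. They are 9 of the 34092 genes of the table, and all 9 were found in it by symbol. The rule that takes them is by name and uses no measured value, although the choice was made with earlier results of these data known. RNA was measured in 9 libraries of wild-type rat primary hippocampal neurons, dissociated from fetal hippocampi at embryonic day 17 and grown in neurobasal medium with B27. At 7 days in vitro (DIV) the cells were incubated for 24 h with vehicle (Control), with 1 nM human NPCT or with 1 nM human PCT, and there were 3 libraries in each group. PCT is procalcitonin, and NPCT is aminoprocalcitonin, the peptide cut from its amino terminus. The libraries are bulk poly(A) RNA of whole cultures, which the methods describe as grown without mitotic inhibitors, so RNA of any dividing glial or precursor cells was measured together with that of neurons. According to the methods the biological triplicates were pooled for RNA extraction, while the labels number 3 replicates in each group, so p-values here measure only the spread between these libraries, which may be technical.

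Oligodendrocytes wrap axons of the central nervous system in myelin. They arise from precursor cells that carry the growth factor receptor PDGFRα and the proteoglycan NG2 and that divide and migrate before they differentiate. The transcription factors OLIG2, OLIG1 and SOX10 set up and keep the lineage, and differentiation brings on CNP and MBP, followed by the late proteins of mature myelin such as MAG and MOG. In the hippocampus, precursors appear around birth and myelin forms after it.

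The deposited values are FPKM, fragments scaled to the length of the gene in kilobases and to the depth of the library, so levels of different genes can be set side by side per length. Multiplying each FPKM by the gene length gave back whole fragments for 100% of the values, and totals between 13573056 and 17211642 fragments per library. The tolerance was 0.01, widened in proportion to the count for genes with many fragments. At the highest counts any value would have passed this check. Replicates were further apart than counting error alone would put them. The chi-square of their fragments per degree of freedom lay between 4.16 and 21.6, and the highest values were those of PCT replicate 3 against the other PCT libraries (18.9 and 21.6) and of NPCT replicate 3 against the other NPCT libraries (10.6 and 10.8). PCT replicate 3 thus stood further from its group than NPCT replicate 3 did. NPCT replicate 3 is shown apart by a choice made together with that of the genes, and values without these libraries are given beside the differences that moved most when they were left out. The labelled cell type was checked against marker lists. The 10 neuronal markers were all present and summed to between 1244 and 1440 FPKM, with the neuronal tubulin Tubb3 at 592 to 758 FPKM. The 10 astrocyte markers were present as well and summed to between 2150 and 2712 FPKM, with Gfap at 734 to 938 FPKM, so the cultures held RNA of astrocytes beside that of neurons.

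In the vehicle-treated cultures Olig1, Olig2, Pdgfra and the early myelin gene Cnp stood above the other members. Olig1 had the highest level of the members, with a mean of 272 FPKM ± 11.3 (SD, n = 3), followed by Cnp at 65.2 ± 1.24, Olig2 at 55.9 ± 1.16 and Pdgfra at 35.4 ± 1.73 FPKM. Sox10 stood at 13.1 ± 0.606 FPKM, Cspg4 at 10.3 ± 0.774, Mog at 9.81 ± 0.641 and Mbp at 8.94 ± 1.03 FPKM. The value of Mog may hold reads of Zfp57, a gene overlapping it on the opposite strand. That limit holds wherever the Mog value is used below, also in sums and correlations. Mag was lowest by far at 0.654 FPKM ± 0.112 (SD, n = 3). In this order the library ranges of neighbouring genes did not overlap, except for Cspg4 with Mog and Mog with Mbp. Among the 15958 genes tested, the control level of Olig1 was at percentile 98.8, those of Cnp and Olig2 at 92.4 and 90.8, and that of Mag at 3.96. The same order from Olig1 to Sox10 was seen with NPCT and with PCT, while Sox10, Mbp, Cspg4 and Mog overlapped with a neighbour in the NPCT libraries and Sox10, Mbp and Mog in the PCT libraries.

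The rest of the lineage was read from lists of 18 other progenitor genes and 22 other myelin genes. Of the progenitor genes 17 were in the table and 16 passed the filter on low values, a mean of at least 0.5 FPKM over the 9 libraries. They included Gpr17, a receptor of committed precursors, at 40.5 to 63.3 FPKM, and Ptprz1, a receptor phosphatase that astrocytes and radial glia also express, at 186 to 337 FPKM. Of the 22 myelin genes 15 passed. The 7 that did not, among them Mobp, Mal, Opalin and Ermn, were mostly products of mature myelin, and the highest value of any of them in any library was 0.585 FPKM. All 9 members passed the filter. Markers of other cell types that share some of these genes were looked at as well. The endothelial gene Cldn5 was listed at 0 in all 9 libraries, while Kdr, another endothelial gene, stood at 0.777 to 1.50 FPKM. The 8 fibroblast genes, which bear on Pdgfra, summed to between 24.3 and 37.8 FPKM, about the level of Pdgfra itself. The 5 Schwann cell genes in the table, which bear on Sox10 and the myelin genes, summed to between 28.8 and 35.7 FPKM, most of it from Pmp22 at 26.01 to 31.83 FPKM, a gene that fibroblasts also express. The part of such cells in the members' levels was not tested.

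Olig1 (ENSRNOG00000028648) encodes a basic helix-loop-helix factor of the lineage and lies at chr11:31428358-31430517 on the plus strand of Rnor 6.0, the build in the submitters' processing notes, which is used for all gene positions. Its level was 277, 259 and 279 FPKM in Control replicates 1, 2 and 3, 276, 273 and 271 FPKM in the NPCT libraries, and 195, 185 and 192 FPKM in the PCT libraries. The PCT libraries were all below the other 6, and the NPCT libraries lay within the range of the controls. Olig2 (ENSRNOG00000028658), the factor that specifies the lineage, lies on the same strand at chr11:31389514-31392890, 35467 bases away from Olig1. It stood at 56.4, 54.5 and 56.7 FPKM in the controls, at 67.5, 64.7 and 57.6 FPKM with NPCT, and at 60.4, 59.1 and 62.7 FPKM with PCT. All treated libraries were above the controls, and NPCT replicate 3 was the closest to them. The ratio of Olig1 to Olig2 was 4.74 to 4.92 in the controls, 4.09 to 4.71 with NPCT and 3.07 to 3.23 with PCT, so the PCT libraries differed from the others in the balance of these neighbouring genes.

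Sox10 (ENSRNOG00000011305; chr7:120393254-120403523, minus strand) encodes a factor present from the precursor to the myelinating cell. It was measured at 12.4, 13.4 and 13.5 FPKM in the controls, 17.9, 14.1 and 21.2 FPKM with NPCT, and 12.7, 15.7 and 14.7 FPKM with PCT. The NPCT libraries lay above the controls and were spread more widely than either other group, with NPCT replicate 3 highest. Its locus overlaps an annotated gene of the opposite strand, AC096473.3, which had a mean of 0.435 FPKM.

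Pdgfra (ENSRNOG00000002244; chr14:35527927-35581031, minus strand), the receptor through which PDGF-A drives precursor division, stood at 37.3, 34.9 and 34.0 FPKM in the controls and at 41.2, 38.7 and 39.5 FPKM with PCT. With NPCT it stood at 37.3 and 36.9 FPKM in replicates 1 and 2 and at 24.2 FPKM in replicate 3, the lowest value of the 9. The 95% Poisson interval of NPCT replicate 3, 23.3 to 25.2 FPKM, did not reach that of any other library, whose lowest bound was 32.8 FPKM. Such intervals cover counting error only. Cspg4 (ENSRNOG00000017208; chr8:61532465-61567510, plus strand) encodes NG2, which pericytes carry as well. It was measured at 10.8, 10.7 and 9.43 FPKM in the controls, 11.9, 11.98 and 10.1 FPKM with NPCT, and 9.22, 8.46 and 9.50 FPKM with PCT. The NPCT and PCT libraries did not overlap each other, and both overlapped the controls. The pericyte and endothelial list summed to 1.44 to 2.56 FPKM. Pdgfrb, a receptor gene placed in the fibroblast list and not in this one, stood at 2.57 to 3.90 FPKM. The part of pericytes in the level of Cspg4 was not tested.

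Cnp (ENSRNOG00000017496; chr10:88490798-88497356, plus strand) encodes an enzyme of the myelin sheath that appears early in differentiation. Its level was 64.0, 65.2 and 66.4 FPKM in the controls, 80.0, 78.6 and 97.5 FPKM with NPCT, and 68.0, 79.6 and 80.6 FPKM with PCT. All 6 treated libraries were above the controls, and NPCT replicate 3 was the highest. Mbp (ENSRNOG00000016516; chr18:79326738-79437310, plus strand) encodes the protein that compacts myelin. It was measured at 7.99, 10.03 and 8.79 FPKM in the controls, 12.3, 10.8 and 25.2 FPKM with NPCT, and 11.9, 11.0 and 14.7 FPKM with PCT. The 6 treated libraries were again above the controls, and NPCT replicate 3 had 1312 fragments of Mbp where no other library had more than 869. The gene has starts 79593 bases apart in the RefSeq annotation of GRCr8, and transcripts from the upstream start, which are also made outside the lineage, cannot be told apart in a value per gene.

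Mag (ENSRNOG00000021023; chr1:89345429-89360733, minus strand) encodes an adhesion protein between myelin and axon. It was measured at 0.532, 0.678 and 0.751 FPKM in the controls, 0.861, 1.14 and 2.79 FPKM with NPCT, and 0.838, 1.04 and 1.39 FPKM with PCT. These levels rest on few fragments, 21 to 28 in the controls and 31, 42 and 111 with NPCT. Only the interval of NPCT replicate 3, 2.30 to 3.36 FPKM, lay apart from those of the other 8 libraries, whose highest bound was 1.78 FPKM. Mog (ENSRNOG00000000775; chr20:2004052-2014286, plus strand), a surface protein of mature myelin, stood at 9.43, 10.6 and 9.46 FPKM in the controls, 10.7, 10.2 and 9.28 FPKM with NPCT, and 10.8, 12.2 and 11.9 FPKM with PCT. The PCT libraries were above all controls, and NPCT replicate 3 was the lowest of the 9 libraries. Mog shares its locus with Zfp57 on the opposite strand, which had a mean of 12.1 FPKM, and whether the counting used strand is not given in the sources used here, so reads of these genes cannot be told apart.

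**Figure D1:**
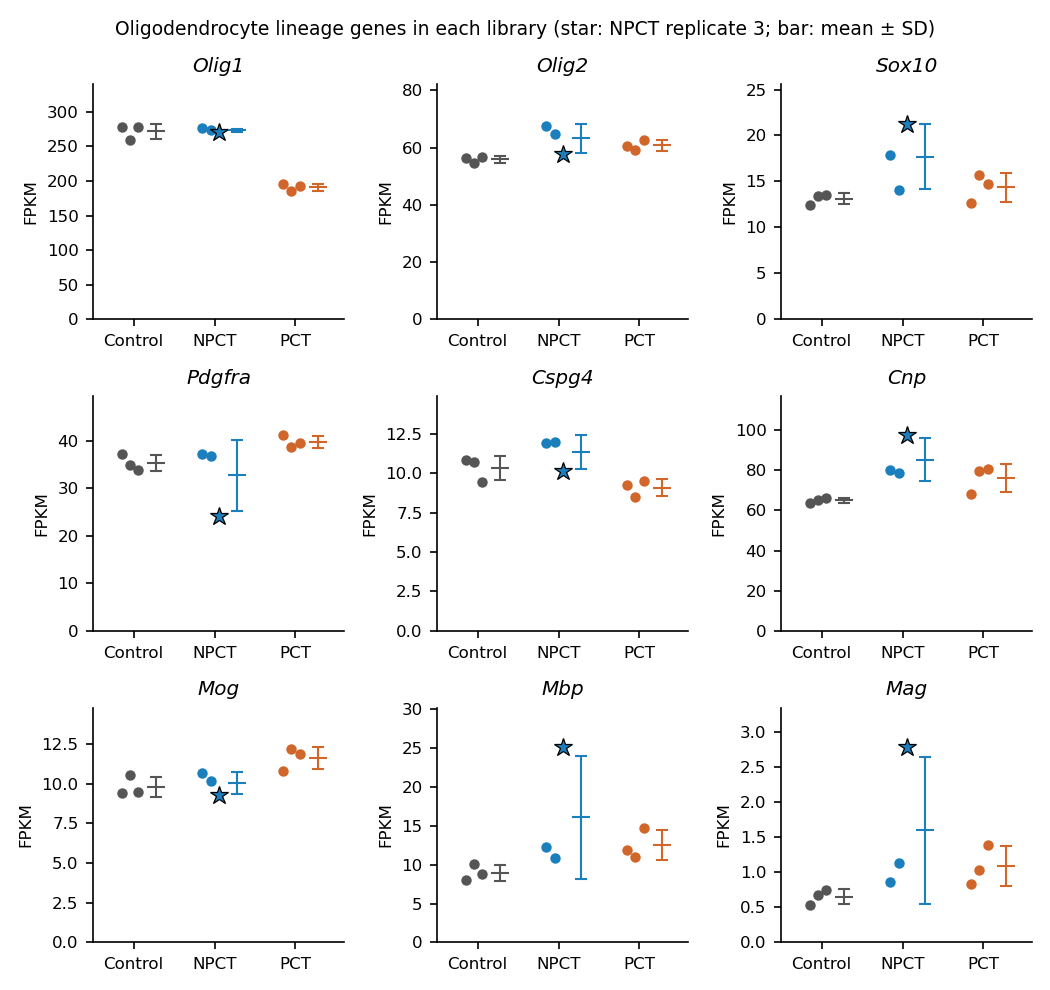
FPKM (vertical axes, from 0) of the 9 genes in the 3 libraries of each group, with the mean ± SD beside the points. The star is NPCT replicate 3, which was highest for Cnp, Sox10, Mbp (25.2 FPKM) and Mag (2.79 FPKM) and lowest for Pdgfra (24.2 FPKM) and Mog, while Olig1 was lower in the 3 PCT libraries (185 to 195 FPKM) than in all others.

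Promoter sequence is shown for 4 members, the myelin genes Mag and Cnp, whose levels went up and down together over the libraries (r = 0.932, and 0.862 without NPCT replicate 3), and the precursor genes Olig2 and Pdgfra for comparison. Over the 9 libraries Cnp had r = 0.416 with Olig2 and −0.56 with Pdgfra, but these were 0.816 and 0.380 without NPCT replicate 3, so the contrast with Olig2 rests on that library, whereas Cnp stayed closer to Mag than to Pdgfra without it. The windows are the 250 bases before the annotated start, 5′ to 3′ on the strand of the gene, from RefSeq on GRCr8, a build other than that of the table, and RefSeq windows were found for 6 of the 9 members. Capitals mark ACAAAG or ACAATG, cores that SOX factors bind, and CAGCTG, an E-box that basic helix-loop-helix factors such as OLIG2 bind, searched on both strands. No match overlapped another in these windows.
Mag, chr1:95291045-95291294, minus strand: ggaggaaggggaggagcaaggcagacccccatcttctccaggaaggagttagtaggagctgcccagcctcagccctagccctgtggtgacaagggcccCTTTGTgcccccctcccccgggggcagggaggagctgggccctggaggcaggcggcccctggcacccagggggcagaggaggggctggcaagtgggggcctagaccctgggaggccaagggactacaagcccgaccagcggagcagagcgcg
Cnp, chr10:86011254-86011503, plus strand: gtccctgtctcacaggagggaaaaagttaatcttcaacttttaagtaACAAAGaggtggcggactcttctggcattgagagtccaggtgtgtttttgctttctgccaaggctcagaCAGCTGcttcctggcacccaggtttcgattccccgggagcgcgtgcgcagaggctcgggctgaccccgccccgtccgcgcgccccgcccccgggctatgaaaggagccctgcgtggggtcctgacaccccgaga
Olig2, chr11:43961335-43961584, plus strand: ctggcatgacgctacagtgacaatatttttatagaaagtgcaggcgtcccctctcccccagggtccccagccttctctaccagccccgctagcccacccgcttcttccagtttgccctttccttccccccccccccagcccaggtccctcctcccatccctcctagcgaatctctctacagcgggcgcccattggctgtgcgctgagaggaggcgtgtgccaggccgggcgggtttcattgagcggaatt
Pdgfra, chr14:33408517-33408766, minus strand: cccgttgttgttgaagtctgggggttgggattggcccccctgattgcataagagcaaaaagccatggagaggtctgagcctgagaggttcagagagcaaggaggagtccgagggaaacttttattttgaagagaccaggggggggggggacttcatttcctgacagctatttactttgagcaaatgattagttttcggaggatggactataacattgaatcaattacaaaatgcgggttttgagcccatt
In the Mag window the reverse of ACAAAG stood 152 bases before the start. The Cnp window held ACAAAG 203 bases and CAGCTG 134 bases before the start. Of the Mbp windows, which are not printed, that of the second start held ACAAAG once, the motif ACAATG at 2 places and CAGCTG once, while that of the first start held none, and neither did the windows of Olig2, Pdgfra and Cspg4. Among 33469 promoter windows of the same length, 25.3% held ACAAAG or ACAATG and 11.97% held CAGCTG, so such matches are common. A match is a description of the letters and not a site shown to be bound.

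Each comparison was fitted with limma on log2(FPKM + 0.1) over the 15958 genes that passed the filter, and p-values were adjusted by Benjamini-Hochberg over all of them. Differences below are on that log2 scale. A gene was counted as differentially expressed (DEG) when its adjusted p did not exceed 0.05 and it changed more than 1.5-fold, and "passed the test" refers to the adjusted p alone. The NPCT and PCT comparisons share the control libraries. In bulk RNA, fewer cells of a type and less RNA per cell cannot be told apart.

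The first comparison asked how 1 nM NPCT changed the members against vehicle. None of the 9 members was a DEG, against 0.219% of all genes tested, and none passed at the adjusted p alone, where 0.47% of all genes did. At an unadjusted p under 0.05 there were 5 of 9, namely Cnp, Sox10, Olig2, Mbp and Mag, against 29.3% of all genes, and limma-voom on the recovered fragments also called 0 of 9 as DEGs. The number of DEGs among all genes, 35, is itself loosely fixed, since it ran from 0 to 562 when each library was left out in turn. The same 5 members were higher in every NPCT library than in every control, against 20% of all genes, and none was lower in every one, against 20.3%. The median difference of the members was 0.18, and that of all genes 0.0062.

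The member closest to the threshold was Cnp, with a difference of 0.38 (SE 0.095, 95% interval 0.17 to 0.60, limma adjusted p = 0.0579). It passed the test when PCT replicate 1 or PCT replicate 3 was left out of the shared estimate of spread (adjusted p = 0.0490 and 0.0244). Without NPCT replicate 3 the difference of Cnp was 0.28, and over all omissions its limma adjusted p reached up to 0.173. The largest differences were those of Mag, 1.01 (95% interval 0.07 to 1.95, adjusted p = 0.144), and Mbp, 0.74 (0.11 to 1.37, adjusted p = 0.120). Both shrank without NPCT replicate 3, to 0.54 for Mag and 0.37 for Mbp, and Sox10 went from 0.41 (adjusted p = 0.103) to 0.27. Olig2 differed by 0.18 (adjusted p = 0.119) and Cspg4 by 0.13 (adjusted p = 0.388). The difference of Cspg4 was 0.21 without NPCT replicate 3 and 0.07 without Control replicate 3. Pdgfra differed by −0.14 (adjusted p = 0.567) with NPCT replicate 3 and by 0.07 without it. For Olig1 the difference was 0.01, with a 95% interval from −0.11 to 0.13, and for Mog it was 0.03, from −0.16 to 0.23. These intervals are narrow enough to leave out a 1.5-fold change (0.585 on the log2 scale) of Olig1 and of the value listed for Mog. That value may hold reads of Zfp57, as given above, so a change of Mog itself is not bounded by it.

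The second comparison set 1 nM PCT against vehicle, and here Olig1 was the member that passed the test. It fell by 0.51 on the log2 scale (SE 0.052, 95% interval −0.63 to −0.39, limma adjusted p = 0.00161), from 272 ± 11.3 to 191 ± 5.24 FPKM (SD, n = 3 each). That is 1.42-fold lower, under the fold threshold, so that 0 of 9 members were DEGs in limma and in limma-voom, against 2.31% of all genes. At the adjusted p alone 1 of 9 passed, against 4.2% of all genes (2.46% as lower), and at an unadjusted p under 0.05 there were 3, Olig1, Mog and Cnp, against 18.9%. Leaving out any single library kept Olig1 past the test, with differences from −0.54 to −0.49 and adjusted p from 0.0022 to 0.0139.

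The other 8 members did not pass with PCT, with or without PCT replicate 3. Mag differed by 0.64 (95% interval −0.29 to 1.58, adjusted p = 0.455), Mbp by 0.48 (−0.15 to 1.11, adjusted p = 0.400) and Mog by 0.24 (0.05 to 0.44, adjusted p = 0.169). Cnp differed by 0.22 (adjusted p = 0.257), Pdgfra by 0.17 (adjusted p = 0.603), Olig2 and Sox10 each by 0.12 (adjusted p = 0.368 and 0.711), and Cspg4 by −0.19 (adjusted p = 0.347). Without PCT replicate 3 the differences of Mag, Mbp and Cnp were 0.47, 0.36 and 0.17, and that of Olig1 was −0.52. Sox10 differed by 0.055 without PCT replicate 2 and by 0.21 without PCT replicate 1. In 6 of the 9 members every PCT library was above every control, against 13.1% of all genes, and in 1, Olig1, every PCT library was below, against 11.9%. The members' median difference was 0.17, and that of all genes 0.0046. Olig1 thus had the opposite sign to 7 of the other members, with Cspg4 as the exception. The summed level of the 5 precursor members was 372 to 394 FPKM in the controls and 307 to 319 FPKM with PCT, a sum in which Olig1 weighs most. Without Olig1 the direction turned, with the other 4 precursor members at 114 to 117 FPKM in the controls and 122 to 126 FPKM with PCT. The 4 myelin members summed to 81.9 to 86.5 FPKM in the controls and 91.6 to 109 FPKM with PCT.

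Markers of other glia moved in the same libraries. Of the 10 astrocyte markers 7 passed the test as lower with PCT, 5 of them DEGs (Aldoc, Aldh1l1, Aqp4, S100b and Slc1a2), and their sum was 2493 to 2673 FPKM in the controls and 2150 to 2217 FPKM with PCT. Gfap, on the other hand, stood at 899 to 931 FPKM with PCT and had a mean of 776 FPKM in the controls. The 9 microglial markers in the table summed to 28.3 to 37.8 FPKM in the controls and to 12.2 to 15.6 FPKM with PCT, with none of them at 0. Their part in the lower level of Olig1 was not tested.

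The third comparison set NPCT against PCT at the same dose and time. Olig1 was higher by 0.52 with NPCT than with PCT (SE 0.052, 95% interval 0.40 to 0.64, limma adjusted p = 0.000871), or 1.43-fold, and it passed without any single library (adjusted p from 0.0007 to 0.0065). No member was a DEG, in limma or limma-voom, against 5.76% of all genes. At the adjusted p alone 1 of 9 passed, against 16.3% of all genes, and at an unadjusted p under 0.05 there were 3, Olig1, Cspg4 and Mog, against 33.1%. Cspg4 differed by 0.32 (95% interval 0.10 to 0.54, adjusted p = 0.0547) and passed when NPCT replicate 3 or PCT replicate 3 was left out (adjusted p = 0.0401 and 0.0392). The sign of the difference was negative for Mog, −0.21 (95% interval −0.41 to −0.01, adjusted p = 0.132), and for Pdgfra, −0.31 (−0.64 to 0.03, adjusted p = 0.183). For the myelin genes Mbp (0.26, 95% interval −0.37 to 0.89), Mag (0.37, −0.57 to 1.31) and Cnp (0.16, −0.05 to 0.38) no difference between the peptides passed the test, and the sign of Mbp and Mag turned without NPCT replicate 3 (−0.11 and −0.10). Sox10 differed by 0.29 (−0.04 to 0.61) and Olig2 by 0.06 (−0.09 to 0.20). Without NPCT replicate 3 the difference was −0.10 for Pdgfra, 0.15 for Sox10, 0.06 for Cnp, 0.12 for Olig2 and −0.15 for Mog, and that of Olig2 was 0.007 without NPCT replicate 1. The groups did not overlap in 4 members, Olig1 and Cspg4 higher with NPCT, against 15.4% of all genes, and Mog and Pdgfra lower, against 18%.

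**Figure D2:**
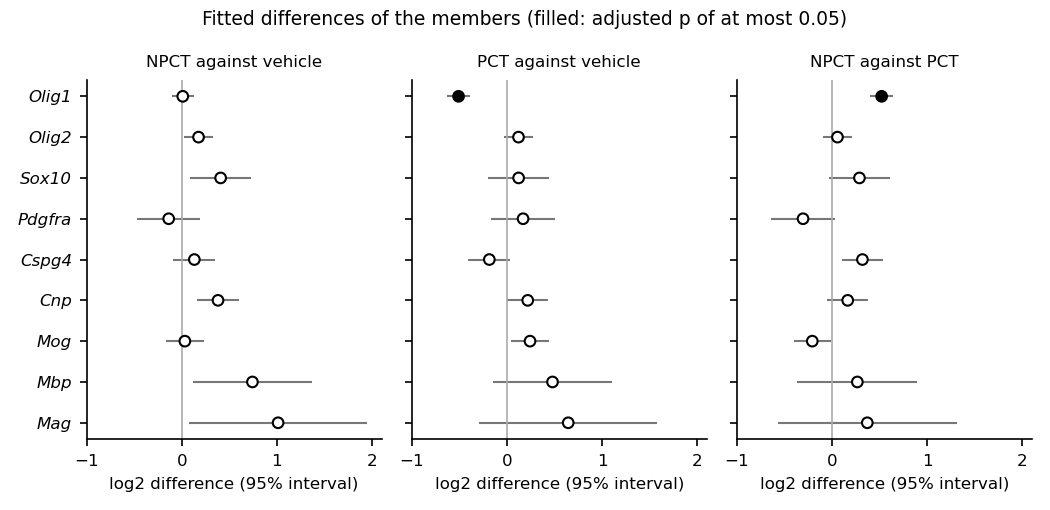
Fitted log2 differences of the 9 genes with 95% intervals (horizontal axes) in the 3 comparisons. The filled points, those with an adjusted p of at most 0.05, are Olig1 in PCT against vehicle (−0.51) and in NPCT against PCT (0.52), and the widest intervals are those of Mag and Mbp.

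NPCT replicate 3 departed from the other NPCT libraries upwards for 3 of the 4 myelin members and Sox10, and downwards for Mog, Olig2, Cspg4 and Pdgfra, while Olig1 stayed near them. As the log2 difference from the mean of NPCT replicates 1 and 2, it was 1.41 for Mag, 1.12 for Mbp, 0.42 for Sox10 and 0.30 for Cnp. It was −0.02 for Olig1, −0.17 for Mog, −0.20 for Olig2, −0.24 for Cspg4 and −0.61 for Pdgfra. Of all genes tested, the middle 90% departed by −0.71 to 0.71 in this library, so that Mag and Mbp lay outside and the other 7 members within it, with Mag at percentile 98.2, Mbp at 97.3 and Pdgfra at 5.80. These are values of 1 library, with no replicate and no test. The ratio of Mbp to Pdgfra was 0.214 to 0.287 in the controls, 0.329 and 0.293 in NPCT replicates 1 and 2, 0.284 to 0.372 with PCT, and 1.04 in NPCT replicate 3.

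The other myelin and progenitor genes were read in the same library in the same way, again without a test. Of the 15 other myelin genes tested, 14 were higher in NPCT replicate 3 than the mean of the other NPCT libraries, with a median departure of 0.35, and the same count was 7 for PCT replicate 3 and 6 for Control replicate 3. Cldn11, the tight junction protein of myelin, departed by 1.29, and Enpp6, a marker of newly formed oligodendrocytes, by 1.18. Both rest on few fragments, 15 to 48 for Cldn11 and 17 to 51 for Enpp6 over the 9 libraries. Ugt8, which makes galactolipids of myelin, departed by 0.76, and Myrf, the factor that switches on myelin genes, by 0.55. Myrf stood at 6.55, 6.65 and 9.70 FPKM in NPCT replicates 1, 2 and 3. Of the 16 other progenitor genes 2 were higher, with a median of −0.14. Gpr17, at 46.0, 48.5 and 47.0 FPKM, did not depart, while Dll3 stood at 5.04, 3.92 and 2.07 FPKM.

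Lists of other cell types are given beside it. All 9 microglial markers were higher in NPCT replicate 3, with a median departure of 2.00, and they summed to 149.6 FPKM against 40.8 and 35.1 FPKM in the other NPCT libraries, 4.34 times the control mean. The proliferation list had a median departure of −0.35, with 2 of 8 genes higher. The 10 astrocyte markers had a median departure of −0.10, with 5 of 10 higher, and their sum of 2712 FPKM against 2452 and 2612 FPKM reflects Gfap and S100b, which were highest in this library. The neuronal list had a median of −0.04, with 4 of 10 higher. The part of these in the departure of Mbp, Mag and Pdgfra was not tested.

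**Figure D3:**
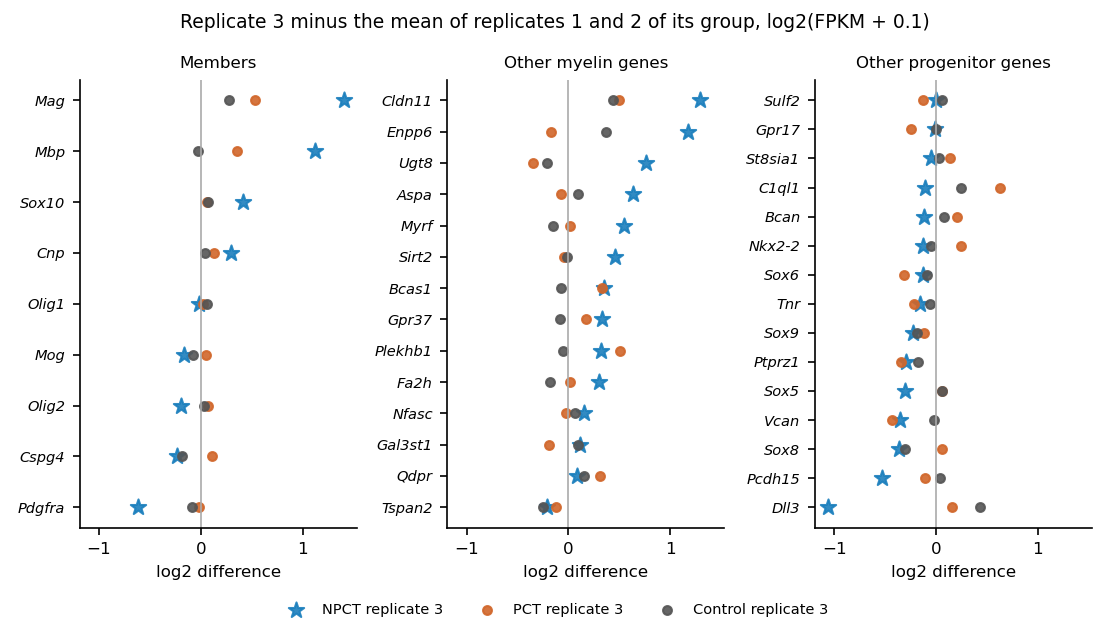
Departure of replicate 3 from the mean of replicates 1 and 2 of its group in log2(FPKM + 0.1) (horizontal axes) for the members and for most of the other myelin and progenitor genes. The stars of NPCT replicate 3 run from −0.61 for Pdgfra to 1.41 for Mag among the members and lie above 0 in 13 of the 14 myelin and 1 of the 15 progenitor genes shown; the circles are PCT and Control replicate 3.

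**Figure D4:**
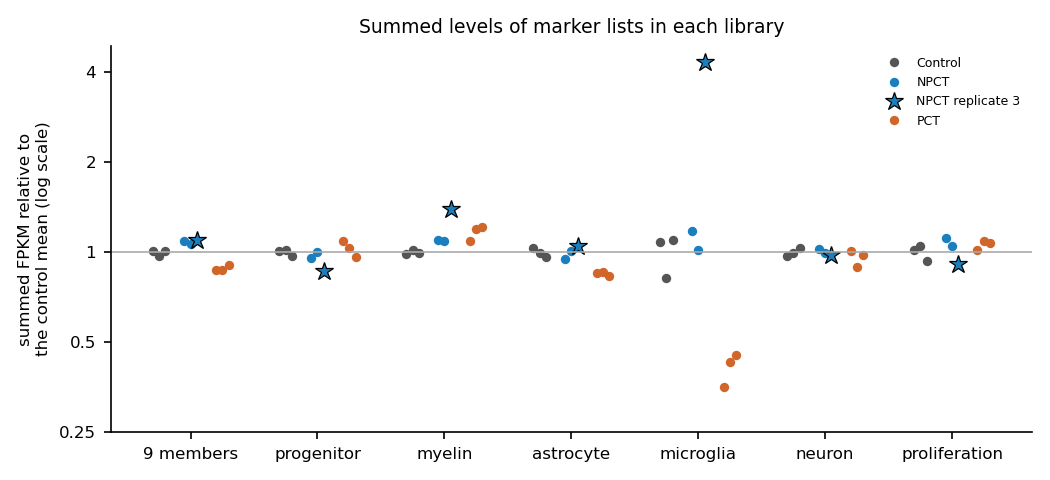
Summed FPKM of each marker list in each library relative to the control mean (vertical axis, log scale). NPCT replicate 3 (star) is at 1.40 for the 22 myelin genes, 0.866 for the progenitor genes and 4.34 for the microglial genes. Ptprz1, which astrocytes and radial glia also express, weighs most in the progenitor sum. It stood at 186 FPKM in that library against a control mean of 294 FPKM. The PCT libraries lie below 1 for the members, a sum in which Olig1 weighs most, and for the astrocyte and the microglial lists. The summed receptors and inhibitors were also below 1 with PCT (0.868 to 0.940).

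The wider programme around the members was followed in 4 lists of genes, and their counts are read beside the shares of all genes given above. With NPCT against vehicle none of the tested genes of these lists passed. The smallest adjusted p values were those of Bcas1, a gene of early myelinating cells (0.60, limma adjusted p = 0.0530), Nkx2-2, a factor of differentiating precursors (0.45, adjusted p = 0.0590), the ligand Bmp7 (0.30, adjusted p = 0.0657) and Hes1, a target of Notch (0.49, adjusted p = 0.0516). The median difference was 0.21 for the 15 myelin genes, 0.06 for the 16 progenitor genes, −0.04 for the 16 ligands and 0.07 for the 19 receptors and inhibitors. At an unadjusted p under 0.05 there were 4, 7, 3 and 5 of them. With limma-voom 5 genes passed at the adjusted p, Bcas1, Bcan and Hes1 as higher and Ptprz1 and Vcan as lower. The shares of all genes given above are those of limma. Limma-voom called more genes in this comparison, 391 DEGs among all genes against 35 with limma.

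With PCT, 3 of the 15 other myelin genes were DEGs. Bcas1 stood at 27.4 to 29.7 FPKM in the controls and at 37.6, 48.3 and 53.6 FPKM with PCT, and it rose by 0.70 (SE 0.14, limma adjusted p = 0.0271). Fa2h, which makes hydroxylated lipids of myelin, rose by 0.87 (adjusted p = 0.0396), and Plekhb1, a membrane-binding protein found in several kinds of neural cells, fell by 0.85 (adjusted p = 0.0266). So the members of this list that passed did not move in a common direction, and the median was 0.22. Of the 16 progenitor genes, Nkx2-2 (0.58, adjusted p = 0.0277) and Tnr (0.42, adjusted p = 0.0498) rose, and neither exceeded the fold threshold. Each of these 5 calls was lost when some single libraries were left out, in between 4 (Plekhb1) and 7 (Fa2h and Tnr) of the 9 omissions, which included each control library in turn.

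Among the 16 ligands that act on the lineage, Cxcl1, a chemokine that holds precursors in place, stood at 4.71 to 5.77 FPKM in the controls and at 17.8, 35.4 and 23.9 FPKM with PCT. It rose by 2.25 (SE 0.23, limma adjusted p = 0.00161), or 4.77-fold, and passed in all 9 omissions of a library. The gene of its receptor in the receptor list, Cxcr2, did not pass the filter. Cxcr2 had a mean of 0.051 FPKM and at most 5 fragments in any library. An action of Cxcl1 on the precursors was not tested. Lif, a cytokine that promotes oligodendrocyte survival, rose by 1.39 (adjusted p = 0.0256), a call that held in 4 of the 9 omissions. Of the 19 receptors and inhibitors of the lineage, 4 had a positive difference with PCT, against 51.0% of all genes, and 15 a negative one. Only 1 passed, the FGF receptor Fgfr2, which fell by 0.27 (adjusted p = 0.0426, passed in 1 of the 9 omissions). FGF receptors are also made by astrocytes, whose markers were lower in these libraries as given above, and their part was not tested.

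Between the peptides, Plekhb1 was higher with NPCT than with PCT by 1.10 (limma adjusted p = 0.00483) and Tspan2 was lower (−0.39, adjusted p = 0.0386) among the myelin genes. In the progenitor list, Bcan (0.32, adjusted p = 0.0309) was higher, and Tnr (−0.47, adjusted p = 0.0170) and Ptprz1 (−0.48, adjusted p = 0.0321) were lower. The ligands Cxcl1 (−2.16, adjusted p = 0.00131), Lif (−1.21, adjusted p = 0.0203), Igf1 (−0.73, adjusted p = 0.0324) and Nrg1 (−0.54, adjusted p = 0.0445) were lower with NPCT. Tgfb1, which microglia make, was higher by 1.67 (adjusted p = 0.00944) and Bmp7 by 0.30 (adjusted p = 0.0417). Of these genes Plekhb1, Cxcl1, Lif, Igf1 and Tgfb1 were DEGs. The receptors and inhibitors that passed, 6 of 19, were all higher with NPCT, namely Fgfr1, Fgfr2, Fgfr3, Notch1, Smo and Id4, by 0.32 to 0.50, and none was a DEG. Among all genes 7.97% passed as higher in this comparison. Glial markers moved with them, since 6 of the 10 astrocyte markers passed as higher with NPCT than with PCT, 3 of them DEGs (median 0.46), and 7 of the 9 microglial markers were DEGs in the same direction (median 2.13). Fgfr3 is itself in the astrocyte list. The part of these cells in the higher receptors, ligands and Olig1 was not tested. The calls of Plekhb1, Cxcl1, Tgfb1, Fgfr1 and Fgfr2 held in all 9 omissions of a library. Smo passed in 8 of the 9, Lif and Id4 in 7, and Tnr, Fgfr3 and Notch1 in 5. Tspan2 passed in 4, Bcan and Ptprz1 in 3, Igf1 and Bmp7 in 2 and Nrg1 in 1.

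The genes most like each member over the 9 libraries were looked up among 13555 genes by Pearson's r of the log2 values, as a description only, since the libraries share their groups and NPCT replicate 3 weighs heavily. Of the 27 genes named below, 6 were still among the 3 most alike without NPCT replicate 3, and r over the other 8 libraries ran from 0.528 to 0.991. Mbp was most like Fibin (r = 0.970), Dusp15 (0.958) and Mag (0.946), and Dusp15 is itself a gene of oligodendrocytes. Mag was most like Taldo1 (0.976), Pdrg1 (0.967) and Tsta3 (0.964), and Cnp most like Rpl28 (0.981), Dpp7 (0.978) and Rps23 (0.973). For Olig1 the most alike were Slc13a3 (0.990), Cpxm1 (0.988) and Hist1h1c (0.988), and for Olig2 they were Mgat5b (0.966), Chic2 (0.962) and Endov (0.960). Apart from Mag, none of these genes was in the lists used here.

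Sox10 went with Cnpy2 (0.965), Cops6 (0.957) and Igfbpl1 (0.947), and Pdgfra with Tmem131l (0.973), LOC680227 (0.947) and Phldb2 (0.940). The genes most like Cspg4 were Fancf (0.957), AABR07050222.1 (0.938) and Btbd17 (0.938), and those most like Mog were Las1l (0.991), Ccdc174 (0.978) and Fbn2 (0.966). The lowest values without NPCT replicate 3 were those of the genes listed for Pdgfra, 0.788, 0.528 and 0.734.

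Among the members themselves, Mbp, Mag, Cnp and Sox10 had r from 0.797 to 0.946 with each other over the 9 libraries. Without NPCT replicate 3 the values between Mbp, Mag and Cnp were 0.751 to 0.862, and those of Sox10 were 0.460 with Mag, 0.524 with Mbp and 0.793 with Cnp. Pdgfra had negative values with Mbp (−0.66), Mag (−0.67), Cnp (−0.56) and Sox10 (−0.70), and all of these turned positive without NPCT replicate 3 (0.609, 0.423, 0.380 and 0.042). Mog likewise went from r = −0.004 to 0.794 with Mbp. The values of Olig1 with Olig2, its neighbour on chromosome 11 (−0.11, and −0.06 without that library), and with Mog (−0.84 and −0.85) stayed close.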

How the data were processed

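RNA-seq values of 9 libraries were analysed, 3 each of Control, NPCT and PCT, grouped by their labels. The authors aligned clean reads with HISAT2 2.0.5, counted them per gene with featureCounts 1.5.0-p3 and converted the counts to FPKM, and the deposited table holds unlogged FPKM per gene and library. The submitters' processing notes name the build Rnor 6.0 and also CASAVA, StringTie 1.3.3b and DESeq2 1.20.0. Use of strand in counting is not given in the sources used here. Columns of values left unused numbered 0. FPKM were used as deposited, and recovered fragments (totals of 13573056 to 17211642) served only for depth, intervals and limma-voom. Since the values are FPKM, the authors' count test was replaced by limma 3.58.1 in R 4.3.3, on log2(FPKM + 0.1) of genes with a mean of at least 0.5 FPKM, with 1 mean per group and a prior variance that follows intensity.

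The scripts were tested on simulated data. The members and lists were chosen with earlier results of these data known. Named were all members, the genes of the progenitor, myelin, ligand and receptor lists that passed or, with none, the smallest adjusted p, and the 3 genes most like each member, except that some genes of the lists are not reported here by name, though the counts hold them. The lists for astrocytes, microglia, fibroblasts, pericytes with endothelium, Schwann cells, neurons and proliferation served as values beside the results. Alternatives were pseudocounts of 1 and 0.01, a filter of 1 FPKM or none, quantile normalization, values with the dependence on gene length removed per library, a fit of only the 2 groups compared, a replicate block, limma-voom and leaving out each library. After the data were seen, leaving out both NPCT replicate 3 and PCT replicate 3 was added, as were the count at the adjusted p without the fold threshold, the correlations without NPCT replicate 3 and the summed precursor level without Olig1. A comparison of 3 with 3 libraries by exact permutation cannot go below p = 0.1, so none is given. Figures were drawn with matplotlib 3.10.9. Promoter windows came from RefSeq on GRCr8.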

Additional observations from a re-analysis of the deposited data

How the results depend on the processing

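Of 513 values of single members under the alternatives, 494 kept their direction and their side of the threshold, 12 came to pass it and 7 turned direction. The cause was not tested. The call of Olig1 with PCT held in all of them. The number of DEGs for NPCT against vehicle, 35 as reported, was 208 with a filter of 1 FPKM, 9 with no filter, 189 with quantile normalization, 2 with the length trend removed, 579 with only the 2 groups compared, 391 with limma-voom, 457 without both replicate 3 libraries of NPCT and PCT, and 0 to 562 when each library was left out. For PCT against vehicle (368) it was 172 to 398 when each library was left out, lowest without a control library, and 420 without both replicate 3 libraries. For NPCT against PCT (919) it was 454 with only the 2 groups compared, 1437 without both replicate 3 libraries, and 525 to 1623 when each library was left out.

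Members past the adjusted p alone for NPCT against vehicle, 0 as reported, numbered 1 (Cnp) with only the 2 groups compared and with limma-voom, 2 (Cnp and Olig2) without both replicate 3 libraries, and 0 to 1 when each library was left out. For NPCT against PCT, 1 as reported, there were 2 (Olig1 and Cspg4) with the length trend removed, with limma-voom and without both replicate 3 libraries, and 1 to 2 when each library was left out. The share of all genes past the adjusted p alone is not given under these alternatives, where the number of DEGs moved as well. So these counts are not read as a result about the members. The summed precursor members, at −0.30 for PCT against vehicle and 0.34 for NPCT against PCT, were at −0.36 and 0.41 without Cspg4 and Pdgfra and at 0.11 and 0.0092 without Olig1, where NPCT against vehicle went from 0.045 to 0.12. For NPCT against vehicle the sign turned for Olig1 with quantile normalization (−0.062) and when libraries were left out (−0.024 to 0.030), for Mog (−0.013 to 0.089) and for Pdgfra (−0.24 to 0.068, and 0.068 without both replicate 3 libraries). For NPCT against PCT it turned for Mbp (−0.11 to 0.50) and Mag (−0.10 to 0.69).

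Libraries of the same replicate number did not deviate together (correlations from −0.072 to 0.034), so the numbers were not taken as pairs. With a replicate block, DEGs for NPCT against vehicle numbered 319 and members past the adjusted p 1 (Cnp). Depth limits Mag most, with 21 to 28 fragments in the controls.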
